A study of Mus musculus with 6 samples.

Results

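The genes described here are 9 genes of transforming growth factor beta (TGF-beta) signalling: the ligand genes Tgfb1, Tgfb2 and Tgfb3, the receptor genes Tgfbr1, Tgfbr2 and Tgfbr3, and the target genes Tgfbi, Ccn2 and Skil. They were chosen by name, and all 9 were found among 19938 named genes, each with 1 probe set annotated to that gene alone. Expression was measured on 6 Affymetrix Mouse Gene 1.0 ST arrays in FAPs (fibro/adipogenic progenitors), the stromal cells of muscle from which its fibroblasts and fat cells arise. The donors were male C57Bl/6 mice of 8 to 12 weeks. In every group the tibialis anterior muscle was injured with 30 µL of 50% glycerol and received a vivo-morpholino (VMO) 3 days later. FAPs were taken 2 days after the VMO and frozen. A VMO is an antisense oligomer with a delivery group that lets it enter cells in the animal, where it covers its target stretch of RNA. One group received a Control VMO, another VMOs against polyadenylation sites (pA-VMO) and the last a VMO that covers a 5' splice site (5'ss-VMO), with 2 arrays in each. Each array held RNA of cells pooled from 4 mice, so the spread between arrays is that between pools. No group without injury and none without a VMO was analysed here. All levels are thus those of FAPs from mice given glycerol and an oligomer. The labels name hindlimb muscles as the source of the cells. They do not make clear whether only the injured tibialis anterior was taken.

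The study concerns a shortened transcript of Pdgfra, which encodes the PDGF receptor alpha, that ends in an intron. The polyadenylation reagent should make this form rarer and the splice site reagent more common. TGF-beta is a main fibrogenic signal for FAPs. Its ligands are secreted in a latent form, held by a propeptide and by binding proteins in the matrix, and must be released before they can act. The active ligand binds the type II receptor, which recruits and activates the type I receptor kinase; this phosphorylates SMAD2 and SMAD3, which join SMAD4 and switch on matrix and feedback genes. Among the questions the design allows is whether the genes of this pathway had different levels after the 2 Pdgfra-directed reagents.

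None of the 9 genes passed the test in any of the 3 comparisons. With limma, a linear model that shares the spread across genes, and Benjamini-Hochberg adjustment over 14953 genes, their adjusted p lay between 0.0802 and 0.989. The largest differences were those of target genes: Tgfbi was 1.25-fold lower with pA-VMO and 1.22-fold lower with 5'ss-VMO than with Control VMO, and Ccn2 was 1.25-fold lower with pA-VMO than with 5'ss-VMO. Tgfb3 was 1.20-fold higher with 5'ss-VMO than with Control VMO. The 3 receptor genes differed by no more than 0.08 on the log2 scale between any pair of groups. With a prior that follows the mean level (limma's trend option), Tgfbi, Tgfb3 and Ccn2 had adjusted p below 0.05 in at least 1 comparison each, as given with each gene below.

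**Figure D1:**
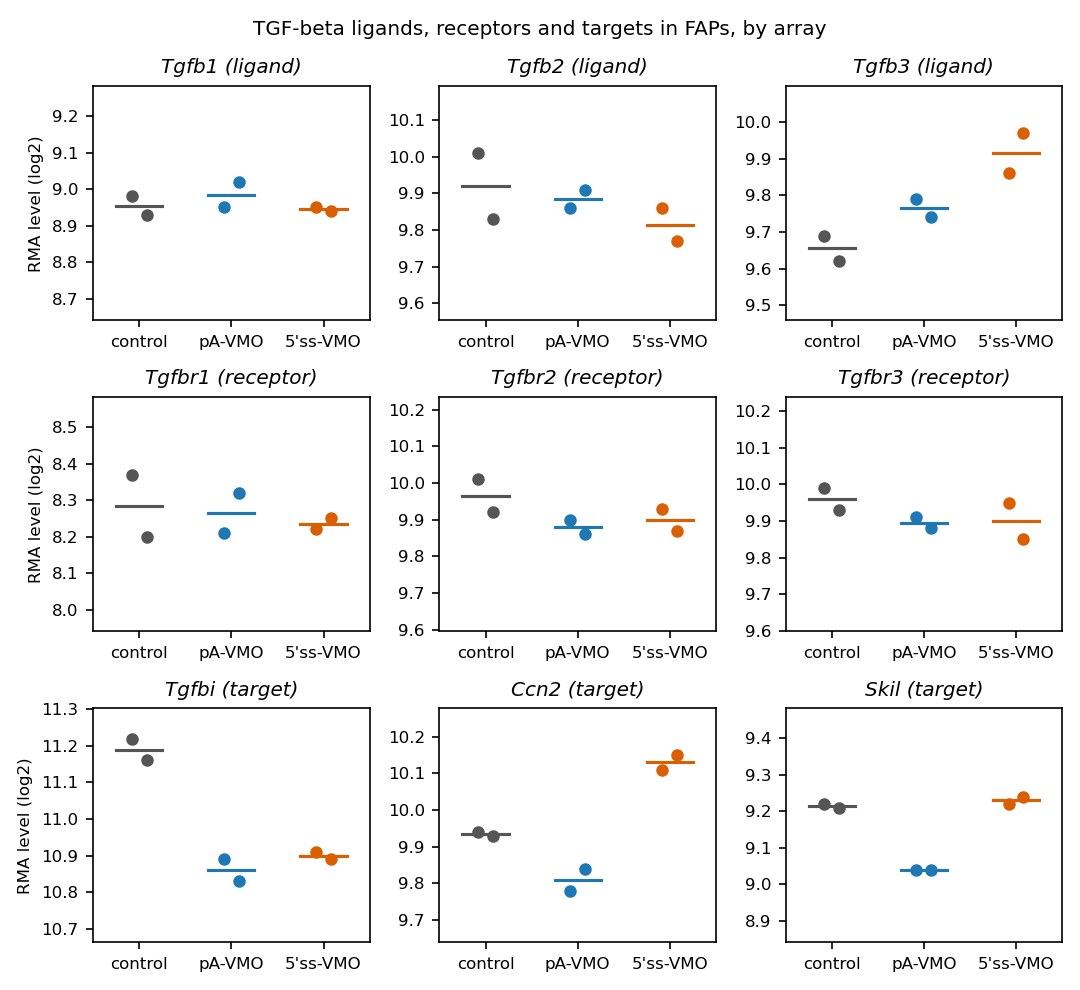
Log2 level (RMA, vertical axis, 0.64 units high in every panel) of the 9 genes on each of the 6 arrays, by VMO group; points are arrays and bars are group means. The Tgfbi arrays of both Pdgfra-directed groups (10.83 to 10.91) lie below both Control VMO arrays (11.16 and 11.22), while the Tgfbr1 arrays of the 3 groups overlap.

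How far the genes of the array as a whole differed gives the scale for these values. At an adjusted p under 0.05, 0.00669% of the 14953 genes tested were called between pA-VMO and Control VMO (1 gene), 0.582% between 5'ss-VMO and Control VMO (87 genes) and 0.0602% between the reagents (9 genes), and 0 of the 9 genes in each. At an unadjusted p under 0.05 the shares of all genes were 11.4%, 13.9% and 15.9% in the same order, and 2, 3 and 2 of the 9 genes were below it. These were Tgfbi and Skil for pA-VMO, Tgfb3, Tgfbi and Ccn2 for 5'ss-VMO, and Ccn2 and Skil between the reagents. The count of 87 genes was 8 and 23 without Control VMO replicates 1 and 2, 41 and 25 without 5'ss-VMO replicates 1 and 2, and 76 without either pA-VMO array. With 2 arrays a group an exact permutation test cannot give a p below 0.333, so no such test was used.

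Pdgfra itself lay between 11.24 and 11.37 on the 6 arrays. Its single probe set gives 1 value, which does not tell the forms of the transcript apart and need not be their total. Of 15 FAP markers 14 were on the array and tested, led by Col1a1, Col1a2 and Dcn. With pA-VMO 2 of the 14 lay wholly above Control VMO and 7 wholly below (24.1% and 18.8% of all genes). With 5'ss-VMO 2 lay wholly above and 6 wholly below (23.2% and 21.5% of all genes). An unadjusted limma p under 0.05 was found for 3 and 4 of the 14 (11.4% and 13.9% of all genes). The summed linear level of these 14 ran from 48713 to 51159 with Control VMO, 48567 to 48753 with pA-VMO and 47552 to 49161 with 5'ss-VMO. Without Dcn, Col1a1, Col1a2 and Col3a1, which the pathway lists also hold, the sums of the other 10 were 16941 to 17561, 16250 to 16347 and 15570 to 16230 in the same order, a choice made after seeing the data. RNA of bulk cells cannot tell fewer cells of a type from less RNA per cell.

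Of the ligand genes, Tgfb3 had the largest differences and Tgfb1 the smallest. Tgfb1 (chromosome 7, 25687002 to 25705077 in GRCm38.p6), the ligand most made by immune cells and platelets, lay at 8.98 and 8.93 with Control VMO, 8.95 and 9.02 with pA-VMO and 8.95 and 8.94 with 5'ss-VMO. The values of the 3 groups interleave, and 3.22% of all tested genes had a smaller range over the 6 arrays than Tgfb1. It lay at 0.02 ± 0.065 against Control VMO with pA-VMO (log2 difference and SE, 2 arrays a group) and at -0.02 ± 0.065 with 5'ss-VMO (limma adjusted p = 0.93 and 0.938). The 95% intervals of these differences, -0.12 to 0.17 and -0.16 to 0.13, lie on both sides of 0. The pA-VMO arrays lay above the 5'ss-VMO arrays by a gap of 0.002, with a difference of 0.04 (adjusted p = 0.819).

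Tgfb2 (chromosome 1, 186622787 to 186709697), the ligand whose propeptide lacks the integrin-binding RGD motif, had levels of 10.01 and 9.83 with Control VMO, 9.86 and 9.91 with pA-VMO and 9.86 and 9.77 with 5'ss-VMO. The Control VMO arrays differed more from each other than any pair of group means. In order of the means, Control VMO stood highest, pA-VMO next and 5'ss-VMO lowest, and Control VMO and pA-VMO overlapped. The pA-VMO arrays lay above the 5'ss-VMO arrays by a gap of 0.009. The difference from Control VMO was -0.04 ± 0.078 with pA-VMO and, after 5'ss-VMO, -0.11 ± 0.078 (limma adjusted p = 0.906 and 0.585), and that between the reagents 0.07 ± 0.078 (adjusted p = 0.697).

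Tgfb3 (chromosome 12, 86056743 to 86079041), which like Tgfb1 can be freed from latency by integrins, was the ligand gene with the widest range, 0.35. Its levels were 9.69 and 9.62 with Control VMO, 9.79 and 9.74 with pA-VMO and 9.86 and 9.97 with 5'ss-VMO. The groups do not overlap, with Control VMO lowest and 5'ss-VMO highest. Tgfb3 was higher with 5'ss-VMO than with Control VMO by 0.26 ± 0.069 (log2, SE; 95% interval 0.11 to 0.42), which did not pass the test (limma adjusted p = 0.162). With the trend option the same difference had an adjusted p of 0.0293. With pA-VMO the difference from Control VMO was 0.11 ± 0.069 (adjusted p = 0.587) and between the reagents it was -0.15 ± 0.069 (adjusted p = 0.318). The interval of the latter, -0.31 to 0, reaches 0. Leaving out 1 array at a time gave differences of 0.21 to 0.32 for 5'ss-VMO against Control VMO, the lowest without 5'ss-VMO replicate 2, with adjusted p from 0.207 to 0.473.

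No difference of a receptor gene exceeded 0.08 on the log2 scale. Tgfbr1 (chromosome 4, 47353222 to 47414926) encodes the type I receptor kinase ALK5, which carries the signal into the cell. Its levels were 8.37 and 8.20 with Control VMO, 8.21 and 8.32 with pA-VMO and 8.22 and 8.25 with 5'ss-VMO, so every group lies within the range of the Control VMO arrays. Tgfbr2 (chromosome 9, 116087695 to 116175363) encodes the type II receptor that binds the ligand first. It lay at 10.01 and 9.92 with Control VMO, 9.90 and 9.86 with pA-VMO and 9.93 and 9.87 with 5'ss-VMO. Tgfbr3 (chromosome 5, 107106567 to 107289629) encodes betaglycan, the co-receptor that presents ligand, above all TGF-beta 2, to the type II receptor. Its levels were 9.99 and 9.93, 9.91 and 9.88, and 9.95 and 9.85 in the same order of groups. For Tgfbr2 and Tgfbr3 both pA-VMO arrays lay below both Control VMO arrays, by gaps of 0.018 and 0.02.

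The differences of the 3 receptor genes over the 3 comparisons ran from -0.08 to 0.03 (log2, SE 0.067 to 0.078), with limma adjusted p from 0.685 to 0.989. For Tgfbr2 against Control VMO they were -0.08 with pA-VMO and, after 5'ss-VMO, -0.06, and for Tgfbr3 -0.06 with each reagent. The 95% intervals of all 9 receptor differences lay between -0.23 and 0.20, so a change beyond 1.17-fold in either direction lies outside every one of them. Changes within these intervals could not be told from 0 with this number of arrays. The bound is not the smallest change that the test could have called. By range over the arrays, the receptor genes stood low: 27.3% of tested genes had a smaller range than Tgfbr1, 18.2% than Tgfbr2 and 15.3% than Tgfbr3.

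**Figure D2:**
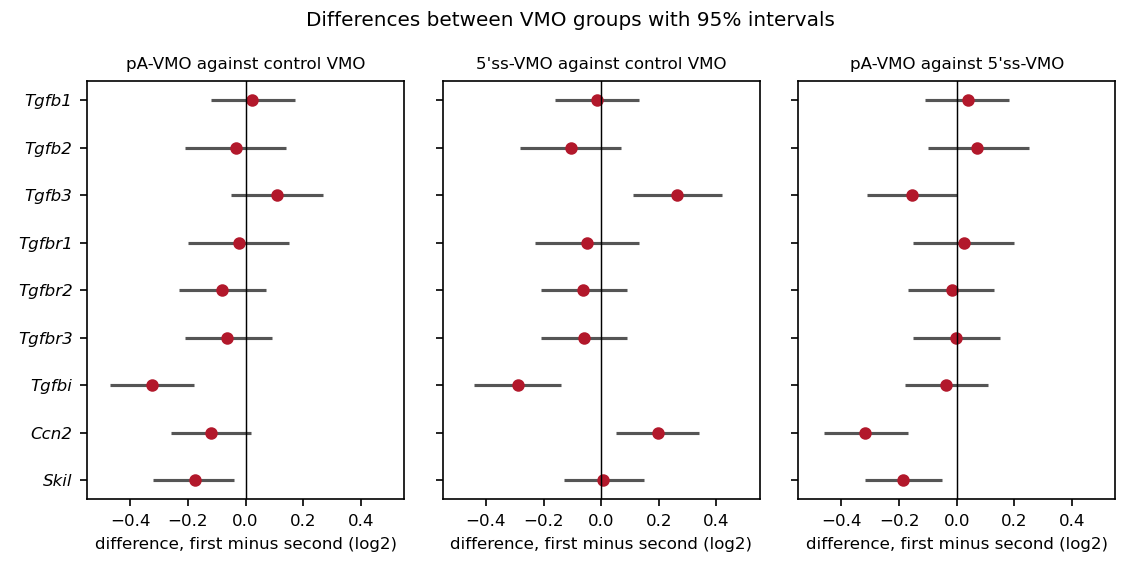
Difference in log2 level between VMO groups for the 9 genes (horizontal axis, first group minus second; points are limma estimates, lines 95% intervals, n = 2 arrays per group). The intervals of Tgfbi lie below 0 in both comparisons with Control VMO (-0.47 to -0.18 and -0.44 to -0.14), and those of the receptor genes include 0 in all 3 comparisons.

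Among the targets, Tgfbi was lower after both reagents. Tgfbi (chromosome 13, 56609586 to 56639359) was named for its induction by TGF-beta and encodes a secreted matrix protein that binds collagens and integrins. RefSeq's promoter table (GRCm38.p6) held entries for 5 of the 9 genes: Tgfb1, Tgfb2, Tgfbr1, Tgfbr2 and Tgfbi. The Tgfbi sequence is shown because this gene had the largest differences of those 5, from chr13:56609336-56609585 on the plus strand, the 250 bases just before the annotated start. Capitals mark matches to the SMAD-binding motif CAGAC on either strand (GTCTG as read here).
Tgfbi: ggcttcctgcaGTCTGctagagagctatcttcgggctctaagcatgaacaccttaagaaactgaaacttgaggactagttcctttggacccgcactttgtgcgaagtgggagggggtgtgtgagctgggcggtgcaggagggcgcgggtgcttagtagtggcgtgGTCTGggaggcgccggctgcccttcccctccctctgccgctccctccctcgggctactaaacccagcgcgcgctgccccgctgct
The matches begin 239 and 85 bases before the start. Both are GTCTG, the motif read on the opposite strand, and they do not overlap. The motif is short: 42.2% of the 32851 promoter entries held at least 1 match in the same 250-base window. Of the 6 entries of the 5 genes, the one of Tgfb1 and the first of the pair for Tgfbr1 held none and the other 4 held at least 1. A match is a description of the sequence, and no binding was measured here.

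The level of Tgfbi was 11.22 and 11.16 with Control VMO, 10.89 and 10.83 with pA-VMO and 10.91 and 10.89 with 5'ss-VMO. All 4 arrays of the Pdgfra-directed reagents lay below both Control VMO arrays, by a gap of 0.267 with pA-VMO and, after 5'ss-VMO, 0.254, and the 2 reagents overlapped. The difference from Control VMO was -0.33 ± 0.065 with pA-VMO (log2, SE; 95% interval -0.47 to -0.18) and did not pass the test (limma adjusted p = 0.204). With 5'ss-VMO it was -0.29 ± 0.065 (95% interval -0.44 to -0.14, adjusted p = 0.105). Both comparisons share the same 2 Control VMO arrays. Between the reagents Tgfbi differed by -0.04 ± 0.065 (adjusted p = 0.83, 95% interval -0.18 to 0.11). Against Control VMO the trend option gave adjusted p of 0.0142 with pA-VMO and, after 5'ss-VMO, 0.0056, and restricting the test to genes above the median level gave 0.0741 and 0.0431. Over the fits that left out 1 array the differences ran from -0.36 to -0.30 with pA-VMO and from -0.32 to -0.26 with 5'ss-VMO, and the adjusted p was 0.147 or more in each.

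Ccn2 lay on opposite sides of Control VMO with the 2 reagents. Ccn2 (chromosome 10, 24595442 to 24598683) encodes connective tissue growth factor, a matricellular protein induced by TGF-beta and also by the mechanically regulated YAP and TEAD factors. Its levels were 9.94 and 9.93 with Control VMO, 9.78 and 9.84 with pA-VMO and 10.11 and 10.15 with 5'ss-VMO. The 3 groups do not overlap: pA-VMO stood lowest, Control VMO between and 5'ss-VMO highest. Ccn2 was lower with pA-VMO than with 5'ss-VMO by 0.32 (difference -0.32 ± 0.064, log2, SE; 95% interval -0.46 to -0.17), the smallest adjusted p of the 9 genes and still above the threshold (limma adjusted p = 0.0802). The trend option gave this difference an adjusted p of 0.00833, and restricting the test to genes above the median level gave 0.0361. Against Control VMO, Ccn2 lay at -0.12 ± 0.064 with pA-VMO (adjusted p = 0.515) and at 0.20 ± 0.064 with 5'ss-VMO (adjusted p = 0.237). With 1 array left out the difference between the reagents stayed between -0.35 and -0.29 (adjusted p 0.115 to 0.302).

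Skil was lower on the pA-VMO arrays than on the other 4. Skil (chromosome 3, 31095058 to 31122923) encodes SnoN, a co-repressor of SMAD proteins that is itself induced by TGF-beta as a negative feedback. It lay at 9.22 and 9.21 with Control VMO, 9.04 and 9.04 with pA-VMO and 9.22 and 9.24 with 5'ss-VMO. Both pA-VMO arrays were below all 4 others, and the Control VMO and 5'ss-VMO arrays overlapped. The difference was -0.18 ± 0.062 against Control VMO (log2, SE; 95% interval -0.32 to -0.04, limma adjusted p = 0.351). Against 5'ss-VMO it was -0.18 ± 0.062 (95% interval -0.32 to -0.05, adjusted p = 0.206). Skil differed by 0.01 ± 0.062 between 5'ss-VMO and Control VMO (adjusted p = 0.973). Its pools were close within each group (SD 0.004 to 0.014), while the standard error also carries the spread of other genes. The trend option left both pA-VMO differences above the threshold.

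Read against all genes, the trend option called 0.341%, 1.78% and 1.32% of the 14953 genes in the same 3 comparisons (each reagent with Control VMO, pA-VMO first, then the reagents with each other), and 1, 2 and 1 of the 9 genes. Restricting the test to the 9969 genes above the median level called 0.01%, 1.82% and 1.02% of them, and 0, 1 and 1 of the 9 genes. Separation of the arrays is read the same way. With pA-VMO 1 of them lay wholly above Control VMO and 5 wholly below, where 24.1% and 18.8% of all tested genes did. With 5'ss-VMO 2 lay wholly above Control VMO and 1 below (23.2% and 21.5% of all genes). Between the reagents 2 were wholly higher with pA-VMO and 3 wholly lower (25.5% and 23.7% of all genes). Non-overlap of 2 against 2 arrays is thus common on these arrays.

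The 3 target genes ordered the groups differently: Tgfbi was lower with both reagents, Ccn2 lower with pA-VMO and higher with 5'ss-VMO, and Skil lower with pA-VMO. None of these differences passed the test. Over the 6 arrays Tgfbi had a correlation with Ccn2 of r = -0.05 and with Skil of r = 0.55, and Ccn2 had one with Skil of r = 0.80. The strongest relation among the 36 pairs was between the receptor genes Tgfbr2 and Tgfbr3 (r = 0.93) and the most negative between Tgfb3 and Tgfbi (r = -0.67). The median over the pairs was 0.08, and 21 pairs were above 0. These correlations are descriptions over 6 arrays that share the normalization and fall into 3 groups.

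**Figure D3:**
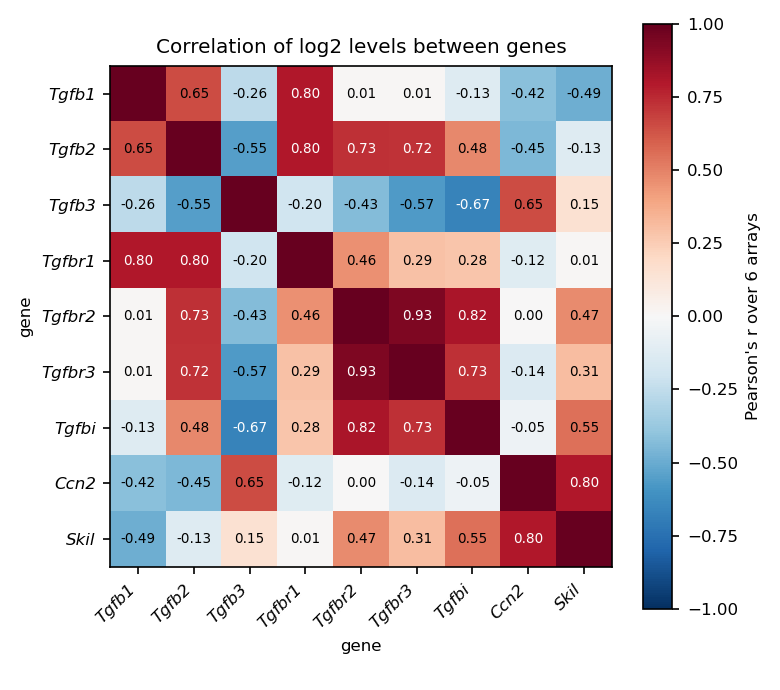
Pearson's r of log2 level over the 6 arrays for each pair of the 9 genes (both axes list the genes; colour and number give r). Tgfbr2 and Tgfbr3 stand at 0.93 and Tgfbr2 and Tgfbi at 0.82, while Tgfb3 lies between -0.67 and 0.65 with the other 8.

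The genes with the most similar profile over the 6 arrays were read for each of the 9. For Tgfb3 they were Kdm4a (r = 0.995) and Cars (r = 0.991), for Tgfbi Bmp4 (r = 0.99) and Ypel3 (r = 0.988), for Ccn2 Rprd1a (r = 0.99) and Rars2 (r = 0.989), and for Skil Mob4 (r = 0.991) and Meox2 (r = 0.989). Those of Tgfb1 were Jarid2 and Slc12a2, of Tgfb2 Plxdc2 and Spata5, of Tgfbr1 Uck2 and Uevld, of Tgfbr2 C1qtnf12 and Sod3, and of Tgfbr3 Rrs1 and Zfx (r from 0.983 to 0.995). With 6 arrays such values are easily reached: between 83 and 316 genes had an r of at least 0.9 with each of the 9.

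The rest of the pathway was read in 5 lists of 105 other genes, of which 101 were on the array and 97 tested. Tenascin-C (Tnc), a matrix glycoprotein of injured tissue and a target of TGF-beta, rose with 5'ss-VMO and was the 1 gene of the 97 to pass the test in any comparison. Of all genes 0.582% passed in that comparison, so 1 of 97 is not set apart from the background. Over the 97 genes an unadjusted p under 0.05 was found for 9.28%, 9.28% and 6.19%, below the shares of all genes. The levels of Tnc were 11.86 and 11.87 with Control VMO, 12.05 and 12.09 with pA-VMO, and 12.24 on both 5'ss-VMO arrays. The 3 groups do not overlap, in the order of Tgfb3. Tnc rose by 0.38 ± 0.062 with 5'ss-VMO (log2, SE; 1.30-fold, limma adjusted p = 0.0386). With pA-VMO it lay at 0.21 ± 0.062 above Control VMO (adjusted p = 0.304), and the reagents differed by -0.17 ± 0.062 (adjusted p = 0.237). Its rise did not pass in any of the 6 fits without 1 array, where it stayed between 0.37 and 0.38 (adjusted p 0.069 without pA-VMO replicate 1 to 0.19 without Control VMO replicate 1). It also did not pass with the arrays centred on their medians, with no filter, or on the 4 arrays compared alone.

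Genes that hold and release latent TGF-beta gave no call. Of 21 listed, 18 were tested, and their median difference was 0.049 with pA-VMO, 0.012 with 5'ss-VMO and 0.003 between the reagents, where the medians of all genes were 0.013, 0.001 and 0.004. The latent TGF-beta binding protein gene Ltbp1 lay at -0.23 ± 0.075 with pA-VMO and, after 5'ss-VMO, -0.21 ± 0.075 against Control VMO (limma adjusted p = 0.334 and 0.267). Ltbp2, a relative that does not bind latent TGF-beta, lay at 0.22 ± 0.073 and 0.29 ± 0.073 (adjusted p = 0.334 and 0.145). Fibrillin-2 (Fbn2), a component of the microfibrils to which these proteins attach, lay at 0.19 and 0.26 (adjusted p = 0.48 and 0.283). These 3 were named for their small p and separated arrays. An unadjusted p under 0.05 was found for 3, 3 and 0 of the 18 genes in the 3 comparisons (11.4%, 13.9% and 15.9% of all genes).

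Other receptors, SMADs and their regulators gave no call either. Of 11 further receptors and co-receptors 10 were tested and 0 called by limma, with 0 at an unadjusted p under 0.05 in any comparison. Bambi, a decoy receptor, lay at -0.20 ± 0.091 with 5'ss-VMO (adjusted p = 0.364), the ligand-binding co-receptor Nrp1 at -0.13 with pA-VMO (adjusted p = 0.511) and the activin receptor gene Acvr1b at 0.13 with 5'ss-VMO (adjusted p = 0.438). All 23 SMADs and regulators were tested and 0 called, with medians of -0.015, 0.001 and -0.034. At an unadjusted p under 0.05 there was 1 in 1 comparison, below the background shares of 11.4% to 15.9% as were the receptors: the inhibitory Smad6, which lay 0.25 ± 0.094 higher with pA-VMO than with 5'ss-VMO (adjusted p = 0.247). Smad3, which carries the TGF-beta signal, lay at 0.14 in that comparison (adjusted p = 0.39), and the co-repressor Tgif1 at 0.13 (adjusted p = 0.459). With 5'ss-VMO Tgif1 lay at -0.15 ± 0.08 against Control VMO (limma adjusted p = 0.434).

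Of 39 further target genes 37 were tested. Their median difference was 0.019 with pA-VMO, 0.048 with 5'ss-VMO and -0.055 between the reagents. The medians of all genes were 0.013, 0.001 and 0.004. With pA-VMO 22 of the 37 lay above Control VMO and 15 below, and with 5'ss-VMO 27 above and 10 below. Between the reagents 9 were higher and 28 lower with pA-VMO. Whether these counts differ from those of other genes was not tested. An unadjusted p under 0.05 was found for 6, 5 and 4 of them, where the shares of all genes were 11.4%, 13.9% and 15.9%. The 1 called was Tnc. The smooth muscle actin-binding genes Cnn1 and Tagln both lay at 0.53 with 5'ss-VMO (SE 0.114 and 0.12, limma adjusted p = 0.0983 and 0.111), and at 0.27 and 0.37 with pA-VMO (adjusted p = 0.415 and 0.328). Acta2 lay at 0.42 ± 0.115 with 5'ss-VMO and at 0.33 ± 0.115 with pA-VMO (limma adjusted p = 0.178 and 0.35). With the trend option Cnn1, Tagln and Acta2 had adjusted p of 0.0361, 0.0194 and 0.0379 for 5'ss-VMO. The group means of Cnn1, 5.66 to 6.19, were near the filter floor of 5.21. The 5'ss-VMO arrays of Tagln differed from each other, at 8.21 and 8.59, as did those of Acta2, at 11.06 and 11.45. For both genes the pA-VMO and 5'ss-VMO arrays overlapped. Among 11 activins, traps and related ligands 9 were tested and 0 called. The activin subunit gene Inhbb lay at -0.14 with 5'ss-VMO (adjusted p = 0.359), and the activin-binding genes Fst at 0.17 with pA-VMO and Fstl3 at 0.14 with 5'ss-VMO (adjusted p = 0.462 and 0.393).

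**Figure D4:**
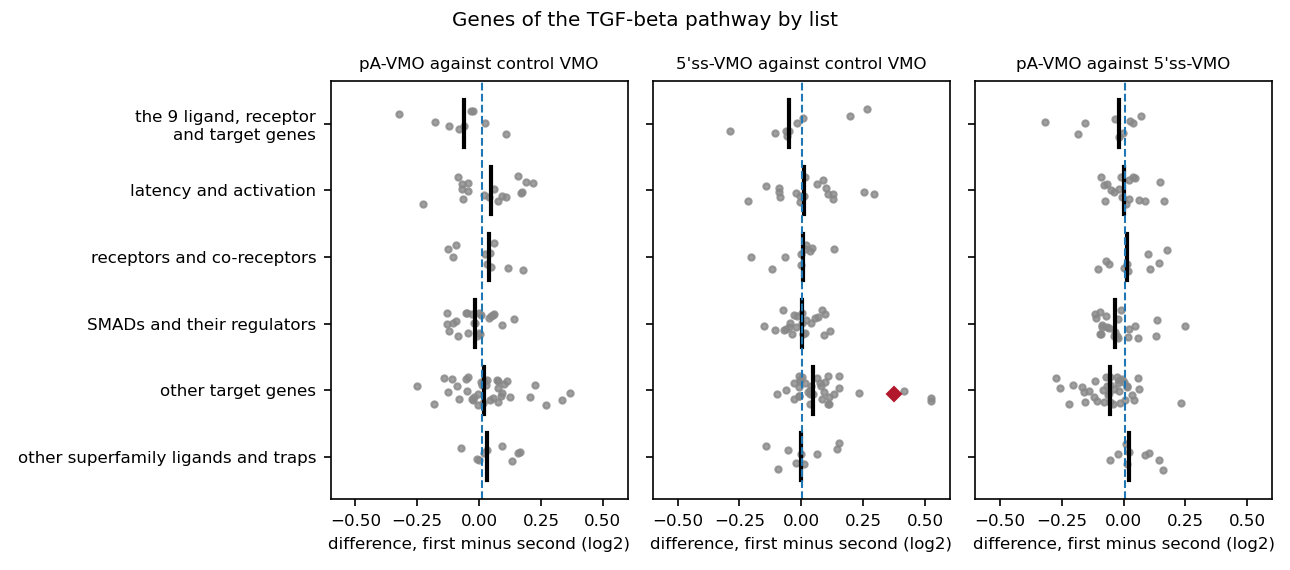
Difference in log2 level (horizontal axis, first group minus second) of each tested gene of the pathway lists in the 3 comparisons; grey points are genes, the red diamond is Tnc, the 1 gene with an adjusted p under 0.05, black bars are list medians and the dashed line is the median of all genes. The list medians lie between -0.063 and 0.049.

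Markers of other cells were read beside these values. With pA-VMO none was called higher, but of all genes tested only 1 was called (0.00669%), and it was lower. With 5'ss-VMO 2 of 15 macrophage, 1 of 10 smooth muscle, 1 of 9 endothelial and 1 of 11 satellite cell markers were called higher. Of all genes tested 0.582% were called in that comparison. The 5'ss-VMO arrays lay wholly above Control VMO for 11, 9, 4 and 6 of these markers, in that order of lists. Wholly below lay 1, 0, 2 and 0 (23.2% and 21.5% of all genes). The pA-VMO arrays lay wholly above Control VMO for 7, 7, 5 and 2 of them, in the same order. They lay wholly below for 1, 1, 1 and 2 (24.1% and 18.8% of all genes). The summed linear level of 16 macrophage markers, led by Lyz2, C1qb and Cd68, was 1594 and 1897 on the Control VMO arrays, 1950 to 2012 with pA-VMO and 2073 to 2097 with 5'ss-VMO, and 2 of 15 tested markers rose with 5'ss-VMO, C1qa by 0.39 and C1qc by 0.50 (limma adjusted p = 0.0472 and 0.0249). The list of 10 pericyte and smooth muscle markers, led by Acta2, Cspg4 and Des, holds 2 genes of the target list, Acta2 and Cnn1. Its sum, most of it Acta2, was 2885 to 2900 with Control VMO, 3393 to 3590 with pA-VMO and 3381 to 4062 with 5'ss-VMO. Without Acta2 and Cnn1, again chosen after seeing the data, the sums of the other 8 were 992 to 1018, 1097 to 1132 and 1176 to 1178. Of these 10, 1 rose with 5'ss-VMO, Mcam by 0.42 (adjusted p = 0.0443). For 10 endothelial markers, led by Tek, Cdh5 and Cldn5, the sums were 656 to 709, 728 to 736 and 771 to 791 in the same order, and Cdh5 was 0.70 higher, a rise that passed the test, after 5'ss-VMO (adjusted p = 0.00551). The endothelial markers were not uniform: with 5'ss-VMO 6 of 9 tested lay above Control VMO and 3 below, among them Tek, at -0.20 with pA-VMO and -0.19 after 5'ss-VMO (adjusted p = 0.382 and 0.312). The 12 satellite cell and myoblast markers, led by Vcam1, Des and Mymk, summed to 2902 to 2994, 2966 to 2969 and 3092 to 3229. Most of each sum was Vcam1, which lay between 10.92 and 10.97 on the 6 arrays. With 5'ss-VMO 10 of the 11 tested lay above Control VMO and 1 below, and with pA-VMO 5 above and 6 below. For 5'ss-VMO an unadjusted limma p under 0.05 was found for 6 of the 11 (13.9% of all genes). Chrna1 rose by 0.62 after 5'ss-VMO (limma adjusted p = 0.0283).

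The 10 muscle fibre markers, led by Acta1, Actn3 and Tnni2, had sums of 917 to 1010 with Control VMO, 960 to 982 with pA-VMO and 1013 to 1018 with 5'ss-VMO, with 0 of 7 tested called. The 6 platelet markers (Treml1, Itga2b and Gp9 first) had 274 to 285, 300 to 308 and 275 to 295, with 0 of 4 called, and the 7 tenocyte markers (Thbs4, Fmod and Comp first) had 7261 to 7706, 7187 to 7306 and 7086 to 7286. Of the tenocyte markers Kera, a matrix proteoglycan, fell in both reagent groups, by 1.32 after pA-VMO and by 0.69 after 5'ss-VMO (limma adjusted p = 0.0232 and 0.0474). Of the FAP markers Dpp4, which marks a progenitor subset of fibroblasts, fell by 0.52 after 5'ss-VMO (adjusted p = 0.0318) and lay at -0.45 with pA-VMO (adjusted p = 0.204). Without either Control VMO array each of these marker calls was lost: without replicate 1 the adjusted p lay between 0.0647 (Cdh5) and 0.234 (Kera, 5'ss-VMO), and without replicate 2 between 0.0512 (Cdh5) and 0.148 (Kera, pA-VMO). No marker is at 0 on these arrays, since each probe set has a background level. Tgfb3, Ccn2 and Tnc were highest in the 5'ss-VMO group, as were the macrophage, endothelial, satellite cell and muscle fibre sums. So was the pericyte and smooth muscle sum without Acta2 and Cnn1. The FAP, platelet and tenocyte sums were not. The part of other cells in the differences of Tgfb3, Tgfbi, Ccn2, Skil and Tnc was not tested.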

How the data were processed

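The deposited values were log2 levels of 35556 probe sets on 6 Affymetrix Mouse Gene 1.0 ST arrays. RMA in Affymetrix Expression Console produced them, per the submitters' processing notes, which corrects background, equalizes the distributions of the arrays and summarises probes; the software version is not given in the sources used here. Such values hide changes in total RNA and compress changes of dim probe sets. Of the probe sets 21789 have 1 symbol in the platform annotation, standing for 19938 genes, and the one with the highest mean was kept per gene. The 14953 genes whose mean reached the 25th percentile (log2 5.21) were tested.

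All 6 arrays entered 1 model of group means without a block (limma 3.58.1, R 4.3.3; 3 residual and 6.06 prior degrees of freedom). Tests were two-sided, with calls at adjusted p below 0.05 (Benjamini-Hochberg). The code was tested on simulated data. The 9 genes and the lists were chosen with earlier results of these data known. Of each pathway list the text names genes called, plus the 3 with the smallest p whose arrays separate the groups; of marker lists, genes called and the 3 with the highest mean; and for each of the 9 genes the 2 with the highest r. Promoter sequences are from RefSeq. Alternatives were other filters, priors, scalings, probe set rules, a replicate block and leaving out each array. Replicate numbers of the labels did not pair the arrays: the correlations of same-numbered deviations were -0.102, 0.021 and -0.035.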

Additional observations from a re-analysis of the deposited data

How the results depend on the processing

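None of the 9 genes was called with no filter, a robust prior, only the 4 arrays compared, the block or centred arrays. A mean over probe sets also called none of them. Each of the 9 has 1 probe set, so that setting left their levels unchanged and is no check of them. In the order pA-VMO, then 5'ss-VMO against Control VMO, then between the reagents, the trend prior called 51, 266 and 197 genes, of them 1, 2 and 1 of the 9, and among other targets 4 and 1 in the last 2 comparisons, and 1 latency gene with 5'ss-VMO. The filter at the median called 181 and 102 genes in the last 2, with 1 of the 9 in each and 2 other targets with 5'ss-VMO. No filter called 0, 24 and 3 genes. Among other targets with 5'ss-VMO, no filter, only the 4 arrays or centred arrays called 0. The replicate block called 2 of those and 23 genes between the reagents, and the mean over probe sets 15. The replicate numbers did not pair the arrays, and the block called none of the 9, nor Tnc (adjusted p = 0.0572), but Cnn1 and Tagln with 5'ss-VMO (0.0153 and 0.0434). Centring turned 4 differences near 0: Inhbb with pA-VMO (-0.005), Skil with 5'ss-VMO (-0.013), and Tgfbr3 (0.012) and Ltbp1 (0.003) between the reagents.

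Without 1 array the counts of genes called were 0 to 2, 8 to 76 and 1 to 17, that of other targets with 5'ss-VMO 0 to 2, and the median of the 9 genes -0.125 to -0.035, -0.089 to 0.009 and -0.044 to 0.009. Some differences took either sign. With pA-VMO these were Tgfb1 (-0.013 to 0.058), Tgfb2 (-0.125 to 0.055), Tgfbr1 (-0.109 to 0.062), Tgif1 (-0.089 to 0.049), Inhbb (-0.017 to 0.02) and C1qa (-0.031 to 0.082). With 5'ss-VMO they were Tgfb1 (-0.041 to 0.009), Tgfbr1 (-0.136 to 0.035), Skil (-0.002 to 0.017), Smad6 (-0.235 to 0.018) and Smad3 (-0.102 to 0.013). Between the reagents they were Tgfbr1 (-0.028 to 0.081), Tgfbr2 (-0.044 to 0.009), Tgfbr3 (-0.051 to 0.045), Ltbp1 (-0.096 to 0.073), Fbn2 (-0.175 to 0.044), Bambi (-0.006 to 0.222), Tagln (-0.35 to 0.035), Fstl3 (-0.116 to 0.011) and Dpp4 (-0.026 to 0.148). The cause of these changes was not tested, and 2 arrays a group limit the precision of every value.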
